A study of Danio rerio with 4 samples.

Results

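Lysosomal cathepsins and the subunits of the vacuolar proton pump were compared between uninjured Muller glia and Muller-glia-derived progenitors of the adult zebrafish retina. Members were taken by name from the probes of a zebrafish oligonucleotide array: symbols that start with cts and a letter for the cathepsins, with ctss1 left out, symbols that start with atp6v or atp6ap for the pump, and symbols that start with lamp and a digit. This gave 37 of 21495 probes and 25 of 8753 named genes, of which 9 genes (15 probes) were cathepsins and 16 genes (22 probes) belonged to the pump. The lamp part of the rule matched 0 probes. Of the 37 probes, 36 were tested, and the untested probe was 1 of 3 for ctslb. Each of the 25 genes was represented by its brightest tested probe, and each of those 25 probes was well above background on all 4 arrays.

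Cathepsins are the proteases that break down proteins inside lysosomes, and most of them need an acid lumen to mature and to work. The acid is made by the vacuolar proton pump, in which the cytosolic V1 sector splits ATP and the membrane V0 sector carries protons across, helped by accessory proteins. The same pump also acidifies endosomes, secretory granules and synaptic vesicles, and in the retina both microglia and Muller glia are known to take up cell debris.

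GFP-positive cells were sorted from retinas, and total RNA from them was hybridised to 4 single-colour arrays, 1 per sample. The glia came from uninjured fish of the gfap:gfp line, aged 7 months, in which the gfap promoter drives GFP (n = 2 arrays). The progenitors came from fish of the 1016 tuba1a:gfp line, aged 7 and 8 months, 4 days after needle pokes (30 gauge) through the back of the eye, and there GFP is driven by the tuba1a promoter (n = 2 arrays). The labels call the samples duplicates and do not say whether each is a separate pool of fish. A p-value here therefore sets the group difference only against the spread of duplicates, which may be technical variation. Transgenic line, promoter and injury all differ between the groups and cannot be told apart.

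All 4 arrays lay on 1 slide and were read in 1 scan. The 75th percentile of the signal was between 4290 and 4899, and log2 signals correlated at r = 0.999 and r = 0.998 within the groups against 0.969 to 0.970 between them. The median spike-in signal was 5444 and 6145 for glia and 2923 and 3070 for progenitors, so the choice of scaling between arrays sets the direction of many differences. Values below are log2 signals relative to the 75th percentile of the array, and differences are progenitors minus glia. Scaling by the median of the array in place of its 75th percentile moved the median of all genes by -0.22, and scaling by the spike-ins moved it by 1.1. Over the 7081 genes tested, 1955 (27.6%) were higher in progenitors and 2851 (40.3%) lower at an adjusted p below 0.05, or 67.9% in either direction. The counts were 1296 and 4275 with median scaling and 6619 and 168 with spike-in scaling.

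Scaled by the 75th percentile, most cathepsin genes were higher in progenitors and most pump genes were lower, while spike-in scaling put both classes higher. Among the 9 cathepsin genes 7 were higher (limma), 0 lower and 2 did not pass, against 27.6% of all genes higher, and their median difference was 0.45 against -0.11 over all genes. That cathepsin median is the value of ctsll, a gene of low signal, and the genes ranked next to it were ctsa (0.74) and ctsd (0.41). With median scaling 6 of the 9 cathepsin genes were higher and with spike-in scaling 9. Among the 16 pump genes 11 were lower, 3 higher and 2 did not pass, against 40.3% of all genes lower, with a median difference of -0.34, whereas with spike-in scaling 16 were higher. Relative to the median of all genes, a measure that none of these 3 scalings changes, the cathepsin median lay at 0.57 and the pump median at -0.23. All 9 cathepsin differences were above 0 with this scaling and above the median of all genes, and 12 of the 16 pump genes lay below it. In RNA from whole sorted populations, fewer cells of a type and less RNA per cell cannot be told apart.

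**Figure D1:**
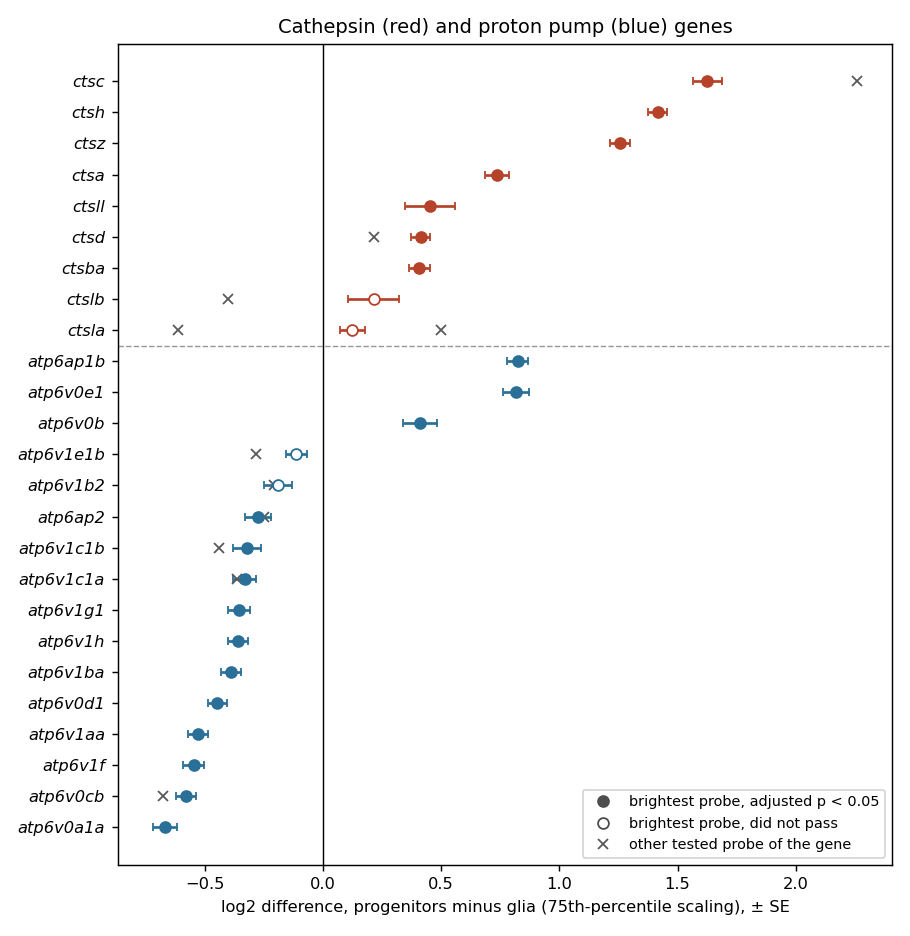
The log2 difference, progenitors minus glia, is plotted for each of the 9 cathepsin genes (red) and 16 pump genes (blue) with its standard error from limma (2 arrays per group), filled where the adjusted p was below 0.05, with crosses for the other tested probes of the gene. The cathepsins run from 0.13 to 1.63 and the pump genes from -0.67 to 0.82 with 75th-percentile scaling, and spike-in scaling moves all points to the right by 1.1.

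The cathepsin with the largest difference was ctsc, which encodes cathepsin C, a dipeptidyl peptidase that activates serine proteases in granules of leukocytes. Its signal (probe at chromosome 1, 61778227 to 61778286, plus strand, danRer2) was -0.44 and -0.41 in glia and 1.26 and 1.14 in progenitors. Both progenitor arrays lay above both glia arrays, and the difference was 1.63 ± 0.06 (SE, limma, adjusted p = 0.000277), a 3.09-fold change. A second, dimmer ctsc probe measured -4.70 and -4.81 in glia and -2.53 and -2.47 in progenitors, a difference of 2.26 ± 0.06. Of all genes tested, 3.93% had a larger difference than the brighter ctsc probe.

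Next was ctsh, for cathepsin H, a lysosomal aminopeptidase. It measured 0.19 and 0.20 in glia and 1.62 and 1.60 in progenitors (chromosome 12, 3395763 to 3395822, plus strand, danRer2). The groups stood apart by far more than their spread, with a difference of 1.41 ± 0.04 (limma, adjusted p = 0.000172, 2.67-fold). The carboxypeptidase cathepsin Z, encoded by ctsz, measured 0.04 on both glia arrays and 1.28 and 1.32 in progenitors (chromosome 13, 34702888 to 34702947, minus strand, danRer2). Its groups did not overlap either, and it was 2.39-fold higher in progenitors (1.25 ± 0.04, adjusted p = 0.000236). With this scaling, these 3 genes were the members whose representative probe changed at least 2-fold, against 7.72% of all genes that were at least 2-fold higher.

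The serine carboxypeptidase cathepsin A, encoded by ctsa, also protects other lysosomal enzymes from breakdown. Its level was 1.81 and 1.77 in glia and 2.56 and 2.48 in progenitors, 1.67-fold higher without overlap (0.74 ± 0.05, adjusted p = 0.00113).

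The aspartic protease cathepsin D, encoded by ctsd, measured 3.09 on both glia arrays and 3.50 and 3.51 in progenitors. The groups did not overlap, and the difference was 0.41 ± 0.04 (limma, adjusted p = 0.00252, 1.33-fold), with 0.22 ± 0.04 (adjusted p = 0.0167) at a second ctsd probe. The cysteine protease cathepsin B, encoded by ctsba, was also higher by 0.41 ± 0.04 (adjusted p = 0.00327), from 0.74 and 0.79 in glia to 1.16 and 1.18 in progenitors. A brighter probe, tied to ctsba only through an older name and so outside the rule, was higher by 1.44 ± 0.05 (adjusted p = 0.000243, 2.72-fold), with 0.91 and 0.83 in glia and 2.31 and 2.30 in progenitors. The 2 probes thus differed widely in size, and with the brighter one standing for ctsba the cathepsin median would be 0.74 in place of 0.45.

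The 3 genes of the cathepsin L group gave weaker and less even values. The cathepsin-L-like gene ctsll lay near the low end of the signal range, with a mean linear intensity of 127 in glia and 193 in progenitors. It measured -4.98 and -5.23 in glia and -4.60 and -4.71 in progenitors, without overlap, a difference of 0.45 ± 0.10 (adjusted p = 0.0231). That call was lost with median scaling (0.23, adjusted p = 0.0863) and with quantile normalization (adjusted p = 0.0501), when either progenitor array was left out (0.40 and 0.51, adjusted p = 0.107 and 0.0704) and when dim probes were kept in the test (adjusted p = 0.0534), and with normexp background correction the value was -0.18 (adjusted p = 0.685). The main cathepsin L gene ctsla did not pass, at 2.20 and 2.24 in glia and 2.30 and 2.39 in progenitors (0.13 ± 0.05, adjusted p = 0.106). With ctslb, which is known from the hatching gland of the embryo, the difference was 0.21 ± 0.11 (adjusted p = 0.15) at mean linear intensities of 40.9 and 52.5. With median scaling ctsla lay at -0.10 and ctslb at -0.0075.

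Probes of the cathepsin L group did not move together. A second ctsla probe was higher by 0.50 ± 0.07 (adjusted p = 0.00519), with 0.58 and 0.43 in glia and 1.00 and 1.01 in progenitors. Another probe with the symbol ctsla was lower, at -0.61 ± 0.11 (adjusted p = 0.0113), but the file places it on chromosome 12 beside the ctslb probes, whereas the other ctsla probes lie on chromosome 23, so its gene is uncertain. A second tested ctslb probe measured -0.40 ± 0.15 (adjusted p = 0.0763). Across the 14 tested cathepsin probes 10 were higher, 1 lower and 3 did not pass, against 27.2% of all probes higher and 38.3% lower. These genes are close relatives, and whether the probes take up each other's transcripts was not tested.

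Outside the rule, ctss1, listed as a cathepsin S gene, had at its brightest probe a larger difference than any member's representative probe. That probe measured -1.24 and -1.21 in glia and 0.76 on both progenitor arrays (1.99 ± 0.04, limma, adjusted p = 9.8e-05, 3.96-fold, chromosome 16). Of the other 2 ctss1 probes 1 was 4.31-fold higher and 1 was 1.16-fold lower (-0.21 ± 0.06, adjusted p = 0.0447). The 2 higher probes are tied to ctss1 only through an older name, and the lower one is listed under a RefSeq transcript. The direction of ctss1 thus depends on the probe. A further 21 probes were tied to cathepsins by their description (19) or only by an older name (2, among them the brighter ctsba probe), without a symbol that the rule takes. Of the 9 tested 5 were higher, 1 lower and 3 did not pass, against 27.2% of all probes higher and 38.3% lower. They included probes described as cathepsin K (1.30 ± 0.04), cathepsin Z (1.37 ± 0.05) and cathepsin B (1.07 ± 0.06 at 1 probe and -1.45 ± 0.21 at another), all past the threshold. The lower cathepsin B probe lay near the low end of the signal range, at -6.30 and -6.38 in glia and -7.50 and -8.09 in progenitors. The size of its difference is thus uncertain.

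In the catalytic V1 sector of the pump, 7 of 9 genes were lower in progenitors, against 40.3% of all genes, and 2 did not pass, all 9 with differences below 0 and a median of -0.35, while spike-in scaling put all 9 higher. The A subunit, encoded by atp6v1aa, binds and splits ATP. Its signal was 3.15 and 3.18 in glia and 2.63 on both progenitor arrays (chromosome 5, 11817804 to 11817863, minus strand, danRer2). The groups did not overlap, and the gene was 1.44-fold lower in progenitors (-0.53 ± 0.04, limma, adjusted p = 0.0015). The F subunit of the central rotor, encoded by atp6v1f, measured 3.40 and 3.44 in glia and 2.87 and 2.88 in progenitors (chromosome 4, 23019958 to 23020018, plus strand). It was 1.46-fold lower without overlap (-0.55 ± 0.04, adjusted p = 0.00148).

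The other V1 genes encode further parts of the head and the stalks. The B subunit gene atp6v1ba was lower by 1.31-fold (-0.39), and atp6v1h, a regulatory subunit, by 1.28-fold (-0.36). The G subunit gene atp6v1g1 (-0.35) and the 2 C subunit genes atp6v1c1a (-0.33) and atp6v1c1b (-0.32) were lower too. The second B subunit gene, atp6v1b2 (-0.19 ± 0.06, adjusted p = 0.0525), and the E subunit gene, atp6v1e1b (-0.11 ± 0.04, adjusted p = 0.0889), did not pass at their brightest probe. At their second probes they measured -0.21 (adjusted p = 0.0422) and -0.28, both past the threshold, but the atp6v1b2 probes overlap on the chromosome. With normexp background correction the calls of atp6v1c1a, atp6v1c1b, atp6v1g1 and atp6v1h were lost, at adjusted p from 0.0533 to 0.0663, and that of atp6v1c1b was also lost without either glia array (0.0542 and 0.0582).

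The membrane V0 sector was split, with 3 genes lower and 2 higher of 5, against 40.3% and 27.6% of all genes, where spike-in scaling put all 5 higher. The a subunit gene atp6v0a1a, whose product forms the path for protons and is known in mammals from nerve cells, had the largest decrease of the pump. It measured 3.02 and 3.09 in glia and 2.36 and 2.41 in progenitors (chromosome 2, 32461464 to 32461523, minus strand, danRer2), 1.59-fold lower without overlap (-0.67 ± 0.05, adjusted p = 0.00137). The ring-forming proteolipid gene atp6v0cb measured 5.72 and 5.71 in glia and 5.16 and 5.12 in progenitors (chromosome 8, 5417023 to 5417082, plus strand). It was 1.49-fold lower (-0.58 ± 0.04, adjusted p = 0.00131), with -0.68 at a second probe, and of all genes tested 13.4% had a more negative difference than its brighter probe. The d subunit gene atp6v0d1, which joins the ring to the stalk, was lower as well (-0.45 ± 0.04, adjusted p = 0.00207).

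Against these, atp6v0e1, a small membrane subunit, measured -1.83 and -1.93 in glia and -1.05 and -1.07 in progenitors. It was 1.76-fold higher without overlap (0.82 ± 0.05, adjusted p = 0.00104). The second proteolipid gene, atp6v0b, was higher by 0.41 ± 0.07 (adjusted p = 0.0111), but the call was lost with median scaling (0.19, adjusted p = 0.103), with normexp (adjusted p = 0.167) and without either progenitor array (0.0606 and 0.0518).

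The 2 accessory genes went opposite ways, except that spike-in scaling put both higher. The gene atp6ap1b, whose product helps to assemble the membrane sector, measured 0.41 and 0.37 in glia and 1.229 and 1.198 in progenitors (chromosome 23, 31853356 to 31853415, plus strand, danRer2). It was 1.77-fold higher without overlap (0.82 ± 0.04, adjusted p = 0.000611). The gene of the prorenin receptor, atp6ap2, was lower (-0.27 ± 0.05, adjusted p = 0.0152). Its adjusted p was 0.0503 to 0.0798 in the 6 alternatives that ended the call, which were quantile normalization, normexp, the deposited table of values, and the fits without glia replicate 1, glia replicate 2 or progenitor replicate 2.

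Probes of a pump gene were close to each other. In the 6 pump genes with a pair of tested probes, all 12 values were below 0, and the probes of a gene lay at most 0.17 apart, while spike-in scaling turned the brightest probe of each of the 6 above 0. In the 4 cathepsin genes with several tested probes, the 9 values differed by up to 1.11 within a gene, or by up to 0.63 (ctsc) without the ctsla probe on chromosome 12. The probes of atp6v1b2 overlap on the chromosome, as do those of atp6ap2 and, at their ends, atp6v1c1a, so these pairs are not independent measurements. A further 9 probes lay outside the rule, 8 described as pump subunits and 1 tied to atp6v0a1a only by an older name (-0.71 ± 0.04). Of the 8 tested 7 were lower and 1 did not pass (0.02), against 38.3% of all probes lower, with all 7 above 0 under spike-in scaling. The D subunit gene atp6v1d (-0.61 ± 0.05, adjusted p = 0.00197) and atp6v0a1b (-0.49 ± 0.10, adjusted p = 0.016), which spike-in scaling likewise turns above 0, also lay outside, since their probes are tied to these symbols only through older names. Both were looked up after the values were seen.

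**Figure D2:**
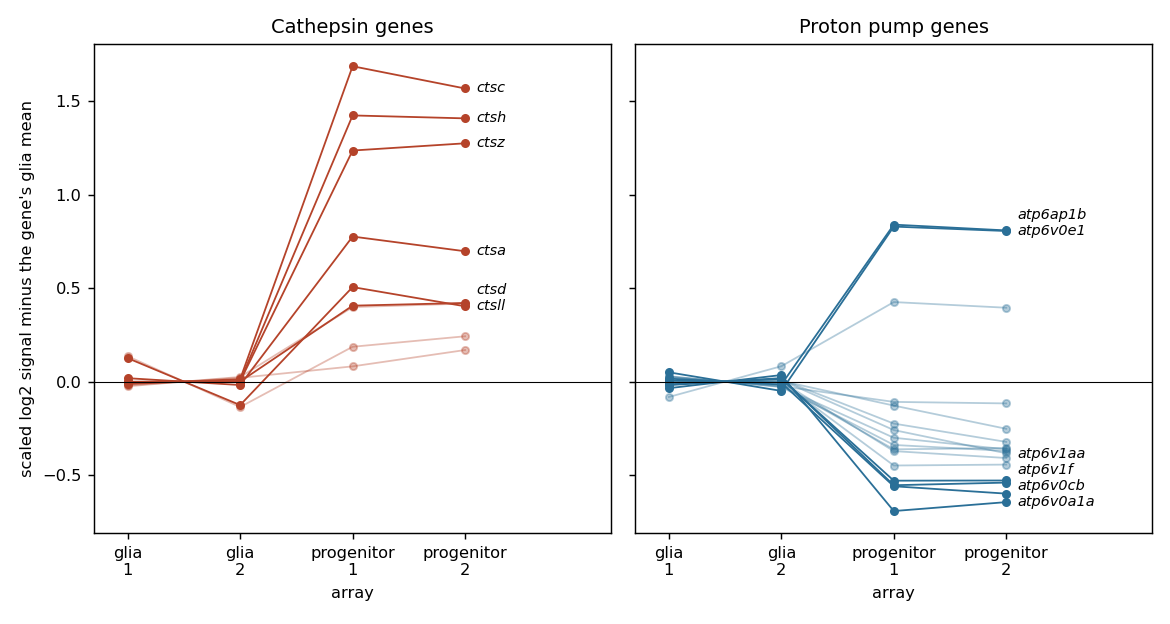
Each line is a gene, with its scaled log2 signal on each of the 4 arrays after subtracting its mean over the 2 glia arrays, for the 9 cathepsins (left) and the 16 pump genes (right), and the names mark genes given with their values in every array. On both progenitor arrays all 9 cathepsins lie above both glia arrays, while 13 pump genes lie below and 3 above with 75th-percentile scaling, and spike-in scaling turns those 13 around.

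Both progenitor arrays lay above both glia arrays in 9 of 9 cathepsin genes, against 35% of all genes tested, and in 3 of 16 pump genes. Both lay below in 13 of 16 pump genes, against 53% of all genes. The gap between groups was smallest for ctslb (0.05) and ctsla (0.06), and for ctslb it was smaller than the standard error of the difference (0.11). Median scaling put the differences of ctslb (-0.0075) and ctsla (-0.10) below 0, so 9 of 9 does not hold there. Of the 25 genes, ctsc, ctsh, ctsz, ctsa, ctsd, ctsba, atp6ap1b and atp6v0e1 kept both direction and call in all 14 alternatives. Spike-in scaling put every pump gene above 0, so no lower gene could be among these. The lower genes atp6v0a1a, atp6v0cb, atp6v0d1, atp6v1aa, atp6v1ba and atp6v1f kept direction and call in every alternative except spike-in scaling.

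Proteases were then set against the pump. The difference between the 2 class medians was 0.80, which is 1.74-fold, and scaling by a single number per array cannot change it. In 129 of 144 pairs of a cathepsin gene and a pump gene, the cathepsin had the higher difference. The pairs reuse the same genes and arrays, so they are not independent and the count only describes the same contrast. For each array, the median over cathepsin genes minus the median over pump genes was also taken, with each gene set against its own mean over the 4 arrays. It was -0.42 and -0.51 in glia and 0.43 and 0.41 in progenitors, or -0.46 ± 0.059 and 0.42 ± 0.012 (SD, n = 2). Setting each gene against its own mean makes the groups nearly mirror each other around 0. The opposite signs thus restate the difference of medians, and the array values add only the spread within groups. No p-value was computed for them, since the members were chosen with results of these arrays known. Some variants were chosen after the values were seen. Without ctslb, a gene of low signal, the difference of medians was 0.94, and without ctslb and ctsll it was 1.08. With the brighter older-name probe for ctsba it was also 1.08. With ctss1 counted among the cathepsins by its brightest probe, also tied by an older name, it was 0.94. Each variant dropped genes at or below the cathepsin median or brought in a probe above it. The value could therefore only rise, and the rise is no support for the difference.

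**Figure D3:**
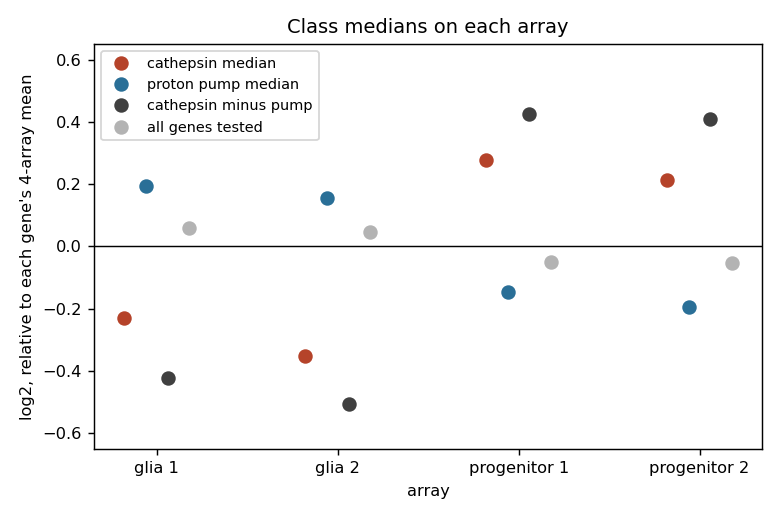
For each array the median over the 9 cathepsins (red), the median over the 16 pump genes (blue), their difference (black) and the median over all 7081 genes tested (grey) are shown in log2 units, each gene relative to its mean over the 4 arrays. Cathepsins minus pump is below 0 on both glia arrays (-0.42 and -0.51) and above 0 on both progenitor arrays (0.43 and 0.41). The opposite signs follow from setting each gene against its own mean and restate the difference of the class medians. The single class medians shift with the scaling, and the pump median turns around with the spike-ins.

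Other lysosomal enzymes, listed together with cofactors and some proteins that are not enzymes, moved in both directions. Of 22 genes tested 12 were higher, 4 were lower and 6 did not pass, against 27.6% of all genes higher and 40.3% lower. The median was 0.31 (0.09 with median scaling and 1.41 with spike-ins). Granulin, encoded by grna, a growth factor that is processed in lysosomes, was 4.09-fold higher (2.03 ± 0.04, adjusted p = 0.000101). The fucosidase gene fuca1.2 (1.63), the carboxypeptidase gene scpep1 (0.84) and the ceramidase gene asah1b (0.90) were higher as well. Legumain, the protease encoded by lgmn that cuts several cathepsins into their mature form, was higher by 0.36 ± 0.05 (adjusted p = 0.00568). The lower genes were the phosphatase acp5a (-0.50), tmem9 (-0.46), the amidase aga (-0.36) and the mannosidase manba. With this scaling manba was at least 3.11-fold lower, since it was not well above background on either progenitor array. Spike-in scaling put acp5a at 0.60, tmem9 at 0.64 and aga at 0.74, with manba still below 0 (-1.13). Prosaposin, encoded by psap, the precursor of sphingolipid activators, measured 0.10 ± 0.05 (adjusted p = 0.138) at its brightest probe and 0.64, 0.43 and -0.01 at its others.

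Among lysosomal membrane, transport and biogenesis genes, 12 of 27 tested were higher, 7 were lower and 8 did not pass. Over all genes 27.6% were higher and 40.3% lower. The median of the list was 0.09 (-0.13 with median scaling and 1.19 with spike-ins). The tetraspanin gene cd63 (1.85) and the ion channel genes mcoln2 (1.53) and tpcn2 (1.31) were higher, as was the peptide transporter gene slc15a4 (0.91). The lower ones included the receptor scarb2a (-0.77), the adaptor ap1g1 (-0.44) and laptm4b (-0.35). Also lower was mfsd12a, by at least 1.06-fold with this scaling and not well above background in progenitors. Spike-in scaling put scarb2a at 0.33, ap1g1 at 0.65, laptm4b at 0.75 and mfsd12a at 0.44. The regulator tfe3a, related to the master regulator of lysosome genes, measured -0.14 ± 0.05 (adjusted p = 0.0667). The names tfeb, tfe3b, npc2, hexb and tcirg1a were matched by no probe.

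Of 4 tested partners of the pump, tcirg1b, an a subunit known in mammals from bone-resorbing cells, was higher by 0.52 ± 0.06 (adjusted p = 0.00312). The assembly factor rogdi (-0.44) and tm9sf2 (-0.25) were lower, and dmxl2, which did not pass, was not well above background in progenitors (bound of 1.11-fold lower). The median of the 4 was -0.33 (-0.20 with dmxl2 at its bound, -0.55 with median scaling and 0.77 with spike-ins). Among 6 genes of cystatins and other protease inhibitors, 4 were higher and 2 did not pass, against 27.6% of all genes higher. All 6 lay above 0, and the median was 0.25 (0.02 with median scaling and 1.35 with spike-ins). The 4 higher genes were kng1 (11.1-fold), serpinb1 (2.56-fold), timp2b (0.33) and timp2a (0.16), of which timp2a measured -0.06 with median scaling. Cystatin C, encoded by cst3, measured 0.03 ± 0.06 (limma, adjusted p = 0.735). Autophagy genes gave 3 higher and 5 lower of 15, against 27.6% of all genes higher and 40.3% lower. Their median was -0.13 (-0.35 with median scaling and 0.97 with spike-ins), close to the -0.11 of all genes. The 5 lower genes include atg4da, which was not well above background in progenitors and whose bound allows no fold. With atg4da set to no change the median was -0.07. The other lower ones included gabarapl2 (-0.34), atg13 (-0.33) and optn (-0.31), which spike-in scaling put at 0.76, 0.77 and 0.79. The higher ones were stx17 (0.68), atg4c (0.21) and sqstm1 (0.20), with atg4c at -0.01 and sqstm1 at -0.02 under median scaling.

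**Figure D4:**
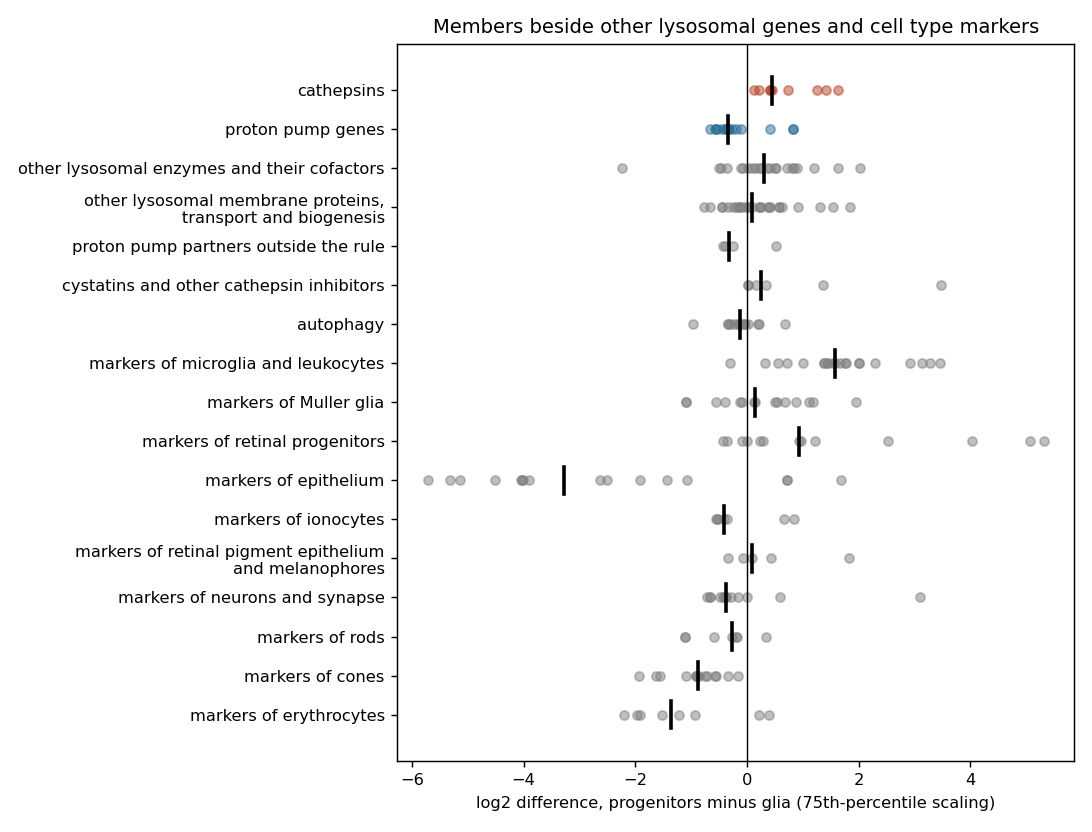
Each point is a tested gene, placed by its log2 difference of progenitors minus glia with 75th-percentile scaling, and each bar is the median of a list. Cathepsins (median 0.45), pump genes (-0.34) and microglia and leukocyte markers (1.58) are shown beside other lysosomal lists and markers of other cells, and spike-in scaling moves all points to the right by 1.1, which turns the medians of the pump, pump partner, autophagy, ionocyte, neuron, rod and cone lists above 0.

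Markers of other cells moved with the groups, and cathepsins are abundant in phagocytes. Of 22 microglia and leukocyte markers on the array, 21 were tested. In progenitors 19 were higher, 1 was lower and 1 did not pass, against 27.6% of all genes higher and 40.3% lower. The median of these markers was 1.58 (1.36 with median scaling and 2.68 with spike-ins). Their summed signal was 20.7 times the 75th percentile on both glia arrays and 50.9 to 54.3 times on the progenitor arrays. The cytokine gene il1b (3.46), the macrophage gene mfap4.1 (3.28) and the complement genes c1qb (2.92) and c1qc (3.13) were higher, while cybb was lower (-0.31, but 0.79 with spike-ins). The 21 tested markers were well above background on all 4 arrays, and the neutrophil gene mpx was so on none. The part of these cells in the cathepsin differences was not tested.

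The pump is abundant in synaptic vesicles, and neuron markers were mostly lower, though not with spike-in scaling. Of 13 tested, 8 were lower, 2 were higher and 3 did not pass, against 40.3% of all genes lower and 27.6% higher. Among the 8, slc17a6b was not well above background in progenitors and has no fold. The median was -0.38 (-0.60 with median scaling and 0.72 with spike-ins), and their summed signal was 239 in glia and 193 to 194 in progenitors. The vesicle genes vamp2 (-0.71), syn2a (-0.48) and syt1a (-0.41) and the calcium-binding protein gene calb2b (-0.66) were lower, whereas gap43 (3.09) and elavl3 (0.60) were higher. Cone markers had 13 lower of 14, against 40.3% of all genes, and all 14 differences were below 0. Their median was -0.88 (0.22 with spike-ins), with sums of 734 to 755 in glia against 449 to 460 in progenitors. Rod markers had 6 lower and 1 higher of 7, against 40.3% and 27.6% of all genes. Their median was -0.26 (0.84 with spike-ins), with sums of 314 to 322 in glia against 254 to 256 in progenitors. Ionocyte markers, from cells rich in this pump, had 3 lower and 2 higher of 7, near the shares of all genes (40.3% lower and 27.6% higher). Their median was -0.41 (-0.36 with foxi3b, dim in progenitors, set to no change, and 0.69 with spike-ins). The sums were 42.8 to 43.4 in glia and 32.1 to 32.4 in progenitors. Nearly all of each sum came from ca2 (5.36 and 5.38 in glia, 4.96 and 4.95 in progenitors), so the sums follow that gene and not the list. The part of these cells in the pump differences was not tested.

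Of the remaining lists, epithelial markers had 13 lower and 2 higher of 16, against 40.3% and 27.6% of all genes. Their median was -3.27 (-2.17 with spike-ins), with sums of 30.9 to 31.2 in glia and 15.0 to 15.2 in progenitors. Most of the progenitor sum came from krt8, which was higher (1.69), so the sums understate the decrease of the lower genes, such as krt5 (-4.02) and tacstd (-5.71). Red blood cell markers had 6 lower and 1 higher of 8, against 40.3% and 27.6% of all genes. Their median was -1.36 (-1.07 with hbba2, dim in progenitors, at its bound, and -0.26 with spike-ins). The sums were 71.0 to 71.9 in glia and 34.5 to 35.3 in progenitors. The labelled cell types were checked against their own markers as well. Muller glia markers had 7 higher and 3 lower of 15, against 27.6% and 40.3% of all genes. Their median was 0.14 (-0.08 with median scaling and 1.24 with spike-ins). The largest increase was that of fabp7a (1.95), and gfap was higher by 0.69 ± 0.05. The 3 lower genes were s100b (-1.09), ptgdsb.1 (-1.08) and gja1b (-0.55), which spike-in scaling put at 0.01, 0.02 and 0.55. Progenitor markers had 9 higher and 2 lower of 13, against 27.6% and 40.3% of all genes. They included ascl1a (5.31 ± 0.07), with pax6a lower except with spike-in scaling. The probes of mki67, a proliferation marker, went opposite ways, with its brightest at -0.42 and another higher in progenitors and not well above background in glia. Markers of pigmented cells had 2 higher and 1 lower of 5, against 27.6% and 40.3% of all genes.

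**Figure D5:**
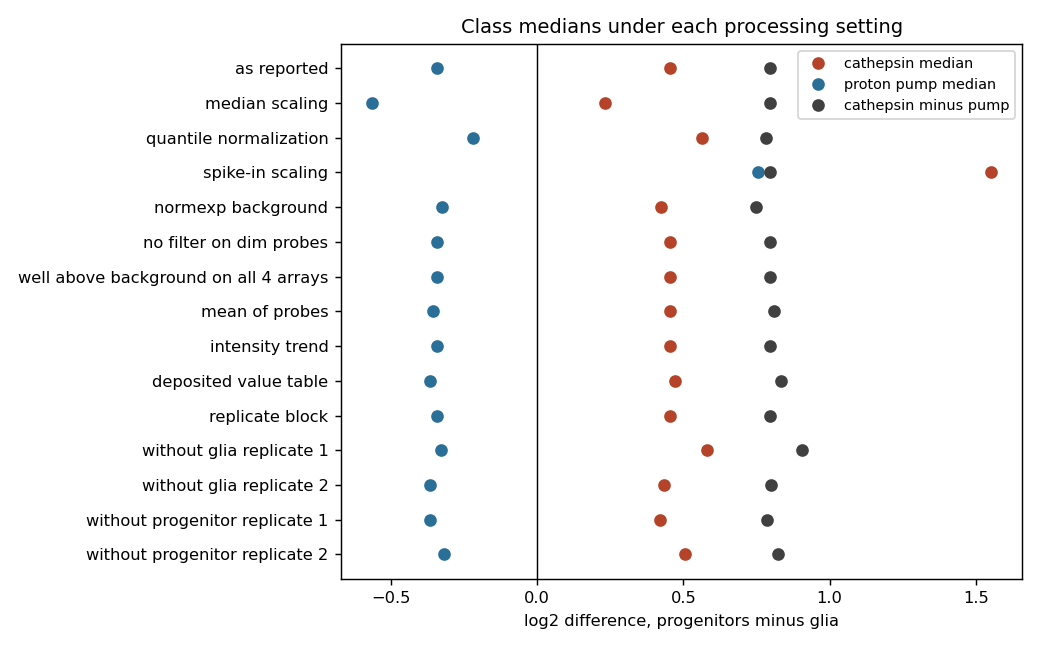
For each processing setting (rows) the cathepsin median (red), the pump median (blue) and the cathepsin median minus the pump median (black) are shown as log2 differences, progenitors minus glia. The black points stay between 0.75 and 0.91, the red points lie between 0.23 and 1.55, and the blue points run from -0.56 to 0.76, above 0 with spike-in scaling. Median scaling, spike-in scaling, either other filter on dim probes, the intensity trend and the replicate block cannot move the black points.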

How the data were processed

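Messenger RNA was measured in 4 samples, 2 per group, on single-colour arrays. The deposited scanner files give spot intensity on a linear scale, from which the software, Feature Extraction, had removed background and spatial trend array by array, with no step between arrays. The file headers name version 9.5.3.1 and the submitters' processing notes version 9.1. A deposited table of intensity values equalled a spot's background-subtracted signal for 100% of 21495 probes (tolerance 0.001) and served as an alternative.

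Deposited intensities were converted to log2 here, and the 75th percentile of each array was subtracted. Control spots (1417) and outlier spots were dropped, and spots of a probe were averaged. Probes well above background on both arrays of at least 1 group were kept (16596). The comparison used lmFit and then eBayes, with no trend, from limma (version 3.58.1, run in R 4.3.3), with Benjamini-Hochberg adjustment over all probes kept and a threshold of 0.05. The brightest probe stood for a gene. The probes were named through their RefSeq accession (7323), a current symbol (598), an older name (2352) or the name in the file (1639), while 9583 stayed without a name. The RefSeq gene table was that of GRCz12tu. A RefSeq accession not in that table was named through an older symbol, which the rule for members does not take. Coordinates are those of the files (danRer2, counted from 1), and gene models of that build were not used here. A gene dim in 1 group is given as a bound, the brighter mean against the higher of the dim signal and the lowest signal well above background. Tests were checked on simulated data.

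Members and lists were chosen with earlier results of these data known. Every member is named, with values in every array for the 6 largest differences of each class and for ctsba and ctsla. From each list of lysosomal genes up to 4 genes per direction by adjusted p are named, with tfeb, tfe3a, tfe3b, lgmn, tcirg1a, tcirg1b, cst3, grna, psap, npc2 and hexb. Markers of other cells are named as examples. The alternatives were other scalings, background corrections, filters, probe rules, variance models and values, a replicate block and leaving out each array, and the number of arrays limits the precision. The deviations of same-numbered samples correlated at r = 0.058. With 2 pairs, crossing the numbers gives the same value with the opposite sign, so this cannot decide whether samples were paired. The numbers are taken to name samples only.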

Additional observations from a re-analysis of the deposited data

How the results depend on the processing

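Cathepsins minus pump stayed between 0.75 (normexp) and 0.91 in the 14 alternatives other than those added later. Median scaling, spike-in scaling, the intensity trend and the replicate block cannot change this value, so they are no checks of it. It also stayed at 0.80 with either other filter on dim probes, but that outcome was fixed in advance. Every representative probe was well above background on all arrays, and the untested ctslb probe is dimmer than the brightest ctslb probe. With median scaling 1296 genes were higher, the cathepsin median was 0.23 and the pump median -0.56; ctsla was at -0.10 and ctslb at -0.0075. With quantile normalization the medians were 0.56 and -0.22. With spike-in scaling 6619 genes were higher and 168 lower, 16 pump genes were higher and 0 lower, and the medians were 1.55 and 0.76. There atp6v0a1a was at 0.43, atp6v0cb 0.52, atp6v1f 0.55, atp6v1aa 0.57, atp6v0d1 0.65, atp6v1ba 0.71, atp6v1h 0.74, atp6v1g1 0.75, atp6v1c1a 0.77, atp6v1c1b 0.78, atp6ap2 0.83, atp6v1b2 0.91 and atp6v1e1b 0.99. With normexp 822 genes were higher and 1147 lower, 6 pump genes were lower, ctslb was at -0.59 and ctsll at -0.18. With the mean of the probes ctslb was at -0.0935.

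Leaving out each array in turn gave a cathepsin median of 0.42 to 0.58 and a difference from the pump of 0.79 to 0.91, the highest of each without glia replicate 1; a group left with 1 array is assumed to vary like the other. Further choices were made after seeing the data. Counting ctss1 as a cathepsin, by its brightest probe with an older name, gave a cathepsin median of 0.60 and a difference of 0.94. Leaving out ctslb gave 0.60 and 0.94, and leaving out ctslb and ctsll gave 0.74 and 1.08. Letting the older-name probe stand for ctsba gave 0.74 and 1.08. Each of these choices could only raise both values. The cause of the differences between the groups was not tested. With the replicate number as a block (replicate block) 1801 genes were higher and 2607 lower, 7 cathepsins were higher, 3 pump genes were higher and 11 lower, and no member's call changed. Dim probes limit ctslb and ctsll.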
